A study of Mus musculus with 18 samples.

Results

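The genes described here encode proteins of the mitochondrial respiratory chain, and they were followed in 3 kinds of mouse liver cell with and without ligation of the bile duct. They were chosen by name: mitochondrially encoded protein genes (names opening with mt-Nd, mt-Co, mt-Cytb or mt-Atp) and nuclear genes of the Nduf families for respiratory complex I (Ndufa, Ndufb, Ndufc, Ndufs and Ndufv). Each also had a deposited FPKM (a read count divided by gene length and by a size set for each library) of at least 1 in at least 3 of 18 libraries. That size was not in proportion to the recovered reads alike in all cell types. The rule used no comparison between groups. Of 54532 genes in the table, 64 names matched and 63 passed, 13 mitochondrially encoded and 50 nuclear. The name that did not pass was Ndufa11b, which reached at most 0.644 FPKM. The members nearest to the limit, Ndufb2 and Ndufs6b, reached 1 FPKM in 7 libraries each.

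Polyadenylated RNA was sequenced from primary mouse hepatocytes (MPH), from bile duct lining cells (BECs, biliary epithelial cells) and from cells labelled Kupffer-like (Kupffer, the liver's resident macrophages) of mice that had a sham operation (Sham) or a bile duct ligation (BDL), an operation that blocks the outflow of bile. Each of the 6 groups had 3 libraries. No other allele or agent is named for any group, and the sources used here give no strain, age, sex or interval from operation to harvest. Nothing in the labels says that the libraries of a group came from separate animals, so each p-value reflects only how much these libraries varied, which may be technical. Recovered reads in genes ranged from 15451576 to 20577862 per library. The cell types did not stand clean of each other: 8 Kupffer cell markers summed to 1652 to 6702 FPKM in the MPH Sham libraries, against 5582 to 6755 in the Kupffer Sham libraries, whereas 8 hepatocyte markers summed to 36938 to 104704 FPKM in MPH Sham and to 417 to 926 in Kupffer Sham.

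The respiratory chain passes electrons from NADH and succinate to oxygen and pumps protons across the inner mitochondrial membrane, and ATP synthase (complex V) uses that gradient. Complex I, the NADH dehydrogenase, is built from subunits encoded in both genomes: the mt-Nd genes lie in mitochondrial DNA and encode the proton-pumping membrane core, and the Nduf genes lie in the nucleus. Hepatocytes are rich in mitochondria, and cholestasis is known to burden them through retained bile acids.

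By role, the mitochondrially encoded members are 7 complex I subunits, cytochrome b of complex III (mt-Cytb), 3 catalytic subunits of complex IV (mt-Co1, mt-Co2, mt-Co3) and 2 subunits of complex V (mt-Atp6, mt-Atp8). The nuclear members are 7 core subunits of complex I, which carry the flavin and the iron-sulfur clusters, 29 accessory subunits, 8 assembly factors (names opening with Ndufaf), the pair Ndufa4 and Ndufa4l2, and 4 others, of which Ndufab1-ps, Ndufb4c and Ndufs6b are annotated as processed pseudogenes and Ndufb1-ps as a long noncoding RNA from a bidirectional promoter. Ndufa4 was first assigned to complex I and is now counted with complex IV. Ndufa4l2 is a paralog known for its induction by low oxygen.

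The marker of the group, mt-Co1 (chrM:5328-6872, plus strand, GRCm38; ENSMUSG00000064351.1), encodes the catalytic subunit of cytochrome c oxidase. Its level in MPH was 10672, 21630 and 32187 FPKM in the Sham libraries and 11954, 13068 and 15882 FPKM in the BDL libraries. In BECs it was 7220, 7184 and 5842 FPKM in Sham and 5863, 4769 and 5574 FPKM in BDL. In Kupffer cells it was 8779, 3424 and 3783 FPKM in Sham and 6817, 21119 and 3876 FPKM in BDL. In the deposited FPKM every MPH library was above every BECs library and above all Kupffer libraries but Kupffer BDL replicate 2, which stood with the hepatocytes. This order depended on scaling. Scaling to recovered reads multiplied MPH Sham replicate 1 by 0.793 and BECs Sham replicate 1 by 1.19, which put the first below the second. Within each cell type the BDL and Sham libraries overlapped.

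The 13 mitochondrially encoded mRNAs did not share a scale. Over 18 libraries the median level was 7202 FPKM for mt-Co1, 3366 for mt-Nd1, 3204 for mt-Cytb, 1627 for mt-Nd2, 1205 for mt-Nd4, 969 for mt-Nd6 and 916 for mt-Nd5. The medians of the others were far lower, at 106 FPKM for mt-Co2, 76.6 for mt-Atp6, 55.7 for mt-Co3, 36.9 for mt-Nd3, 17.7 for mt-Nd4l and 2.45 for mt-Atp8. Of these 6, 5 are the genes whose sequence is almost wholly present in other annotated transcripts: 99.5% of the 100-base windows of mt-Co2 and of mt-Atp6, 99.9% of those of mt-Co3, 97.6% of mt-Nd3 and 98.5% of mt-Nd4l were found letter for letter in a transcript outside the mitochondrial genome. The share was 60.8% for mt-Nd4, 30.8% for mt-Co1 and 3.19% for mt-Nd2. It was 0 for mt-Nd1, mt-Nd5, mt-Nd6, mt-Cytb and for mt-Atp8, the lowest of the 13. Only annotated transcripts were searched, so a share of 0 does not exclude a copy outside them. The genes mt-Atp8 and mt-Atp6 overlap each other, as do mt-Nd4l and mt-Nd4, and mt-Nd5 and mt-Nd6, which is the only one of the 13 on the minus strand. Whether the counting used strand, or how it treated reads with more than 1 match, is stated in none of the sources used here, so the part of shared sequence in these levels was not tested.

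**Figure D1:**
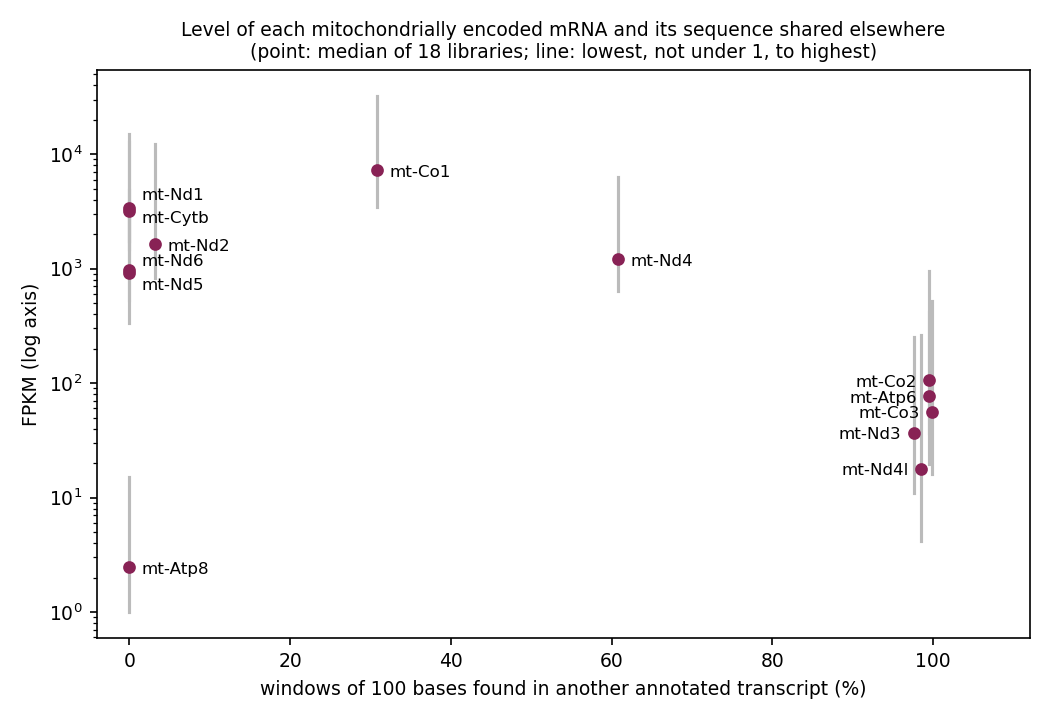
Level of each of the 13 mitochondrially encoded mRNAs (vertical log axis, FPKM; point, median of 18 libraries; line, lowest, drawn no lower than 1, to highest library) against the percent of its 100-base windows found in another annotated transcript. The 5 genes at 97.6% or more lie between 17.7 and 106 FPKM, and mt-Atp8 is low with no window found in another annotated transcript. Sequence outside annotated transcripts was not searched.

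Each of these 5 genes has a copy in 1 block of nuclear copies, 7 annotated genes on the minus strand of chr1:24611535-24616197, which also holds stretches of mt-Nd4 and mt-Co1; mt-Co2 and mt-Atp6 also share sequence with annotated genes elsewhere. Gm28661 matched mt-Co2 over 681 of 681 aligned bases, Gm10925 matched mt-Atp6 over 678 of 678, Gm28437 matched mt-Co3 over 783 of 783, Gm10222 matched mt-Nd4l over 294 of 294 and Gm28439 matched mt-Nd4 over 876 of 876. Gm28438 matched mt-Nd3 at 344 of 345 bases (T3C, counted from base 1 of the mitochondrial gene) and Gm29216 matched mt-Co1 at 482 of 483 (A1066T). Between Gm10925 and Gm28661 lie 233 bases (chr1:24614652-24614884). In mitochondrial DNA mt-Atp8 lies between mt-Co2 and mt-Atp6 and overlaps the second. The sequence of that gap was not compared with mt-Atp8. The stretches below, read from the GENCODE M21 transcripts on GRCm38, show how little separates a read of the mitochondrial gene from a read of its copy; the capital letter marks the base that differs, and the mt-Nd4l pair has none.
mt-Nd3 (chrM:9459-9518, plus): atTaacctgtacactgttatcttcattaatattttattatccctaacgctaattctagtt
Gm28438 (chr1:24613060-24613119, minus): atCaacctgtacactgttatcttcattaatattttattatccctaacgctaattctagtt
mt-Co1 (chrM:6390-6449, plus): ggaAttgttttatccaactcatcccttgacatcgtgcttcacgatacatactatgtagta
Gm29216 (chr1:24616129-24616188, minus): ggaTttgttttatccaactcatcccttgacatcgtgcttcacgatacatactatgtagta
mt-Nd4l (chrM:9877-9936, plus): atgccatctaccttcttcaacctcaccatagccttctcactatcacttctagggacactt
Gm10222 (chr1:24612641-24612700, minus): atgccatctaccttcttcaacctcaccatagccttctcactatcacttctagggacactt
The copies were also listed with levels in the deposited table, and whether those reads came from the copies was not tested. Over 18 libraries the median was 73.9 FPKM for Gm28661 beside 106 for mt-Co2, 49.2 for Gm10925 beside 76.6 for mt-Atp6, 25.1 for Gm28437 beside 55.7 for mt-Co3 and 8.36 for Gm10222 beside 17.7 for mt-Nd4l. In each of these 4 pairs the copy was listed below the mitochondrial gene, although the sequences cannot be told apart over the aligned bases.

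Summed over the 13 genes, the mitochondrially encoded mRNAs reached 35567, 64259 and 88147 FPKM in MPH Sham and 34500, 36461 and 61297 in MPH BDL. In BECs the sum was 17263, 18067 and 15330 in Sham and 14971, 12319 and 13592 in BDL. In Kupffer cells it was 22533, 9048 and 9765 in Sham and 18765, 59572 and 10217 in BDL. The Sham and BDL sums overlapped in MPH and in Kupffer cells, and in BECs each BDL library was below each Sham library. Kupffer BDL replicate 2 stood far above the other libraries of its group.

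The sum of the nuclear complex I subunits was, relative to its mean, far steadier between libraries than the mitochondrial sum in every group but BECs Sham. There the mitochondrial sum was 16887 ± 1406 (SD, n = 3) and the nuclear sum 946 ± 199 (SD, n = 3). The sum over the 36 core and accessory subunits was 3067, 2588 and 3310 FPKM in MPH Sham and 1666, 1803 and 1882 in MPH BDL, a mean of 2988 ± 368 (SD, n = 3) against 1784 ± 109 (SD, n = 3), with no overlap. In BECs it was 801, 864 and 1174 in Sham and 815, 797 and 794 in BDL, which overlap. In Kupffer cells it was 906, 831 and 772 in Sham and 1266, 979 and 1064 in BDL, with every BDL library higher. The Kupffer groups overlapped when libraries were scaled to their recovered reads, at 955 to 1147 in Sham and 979 to 1350 in BDL. They also did with a common sum of FPKM, at 1093 to 1185 in Sham and 929 to 1408 in BDL. The order from MPH down to BECs and Kupffer cells thus held for the nuclear sum in Sham with a wide gap in the deposited FPKM, and BECs Sham and Kupffer Sham did not differ beyond their spread. With a common sum of FPKM the gap narrowed, to 1505 at the lowest in MPH Sham against 1388 at the highest in BECs Sham.

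The ratio of the mitochondrial to the nuclear sum within a library does not depend on library scaling. It was 11.6, 24.8 and 26.6 in MPH Sham and 20.7, 20.2 and 32.6 in MPH BDL. It was 21.5, 20.9 and 13.1 in BECs Sham and 18.4, 15.5 and 17.1 in BECs BDL. In Kupffer cells it was 24.9, 10.9 and 12.7 in Sham and 14.8, 60.8 and 9.61 in BDL. Sham and BDL overlapped in all 3 cell types, so the 2 genomes' transcripts were not separated from each other by ligation beyond the spread between libraries. Within each MPH group, but not across both, the mitochondrial sum followed the order of the hepatocyte marker sum, which was 36938, 59956 and 104704 FPKM in Sham and 44419, 54763 and 98449 in BDL. Kupffer BDL replicate 2 also held the highest hepatocyte marker sum of the Kupffer libraries, 3125 FPKM against 1017 and 2384 in its group and at most 926 in Sham, and the part of other cells in its ratio was not tested.

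**Figure D2:**
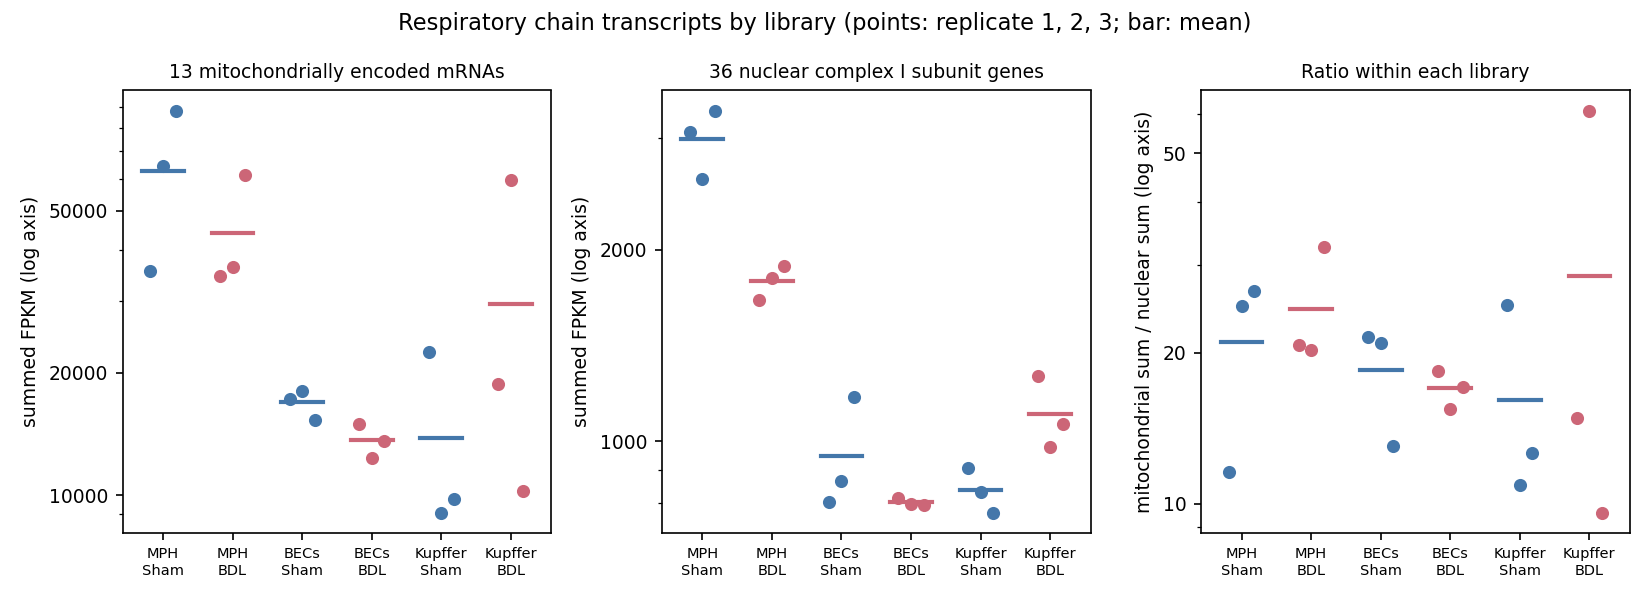
Summed FPKM of the 13 mitochondrially encoded mRNAs, summed FPKM of the 36 nuclear complex I subunit genes and their ratio in each of the 18 libraries (points; vertical log axes), with the group mean as a bar. MPH BDL lies below MPH Sham for the nuclear sum, 1666 to 1882 against 2588 to 3310, while the ratio overlaps in every cell type and Kupffer BDL replicate 2 stands apart at 60.8.

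In hepatocytes the members lay lower after ligation almost without exception, yet none passed the test. Differences are BDL minus Sham on the log2(FPKM + 1) scale, and a gene was called at an adjusted p under 0.05 in limma with Benjamini-Hochberg adjustment over all genes tested. Of the 63 members 60 were negative and 0 were called, against 1.57% of all 12323 genes tested (194 genes). An unadjusted p under 0.05 was found for 39 of the 63 members, against 2791 of all 12323 genes. The median difference was -0.71 over the nuclear members and -0.53 over the mitochondrially encoded ones, against -0.06 over all genes. In 41 members, all nuclear, the 3 BDL libraries lay below the 3 Sham libraries, against 18.4% of all genes tested. When the 18 libraries were fitted in 1 model, which estimates the spread from all groups, 34 members were called lower, against 8.28% of genes called lower. With the title number as a block, which pairs some MPH and Kupffer libraries, 36 were called lower, against 8.32% of genes.

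Core subunits in MPH differed in how far apart the groups lay. Ndufs8, an iron-sulfur subunit at the joint to the membrane arm, was at 144, 125 and 159 FPKM in Sham and at 70.2, 74.1 and 62.0 in BDL. It is named here after its values were seen. Ndufv1, which binds flavin and takes electrons from NADH, was at 98.8, 79.2 and 113 FPKM in Sham and 60.6, 59.9 and 73.9 in BDL. Neither overlapped between groups, with log2 differences of -1.04 (SE 0.22, limma adjusted p = 0.07) and -0.57 (SE 0.23, limma adjusted p = 0.215).

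Not every core subunit was separate. Ndufs1, the largest iron-sulfur subunit, was at 14.3, 14.9 and 24.1 FPKM in Sham and 13.2, 13.6 and 14.7 in BDL. Its groups overlapped, at a log2 difference of -0.31 (SE 0.24, limma adjusted p = 0.487). Over the 7 core subunits the median was -0.57, and 5 did not overlap.

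Among the 29 accessory subunits all differences in MPH were negative, from -1.19 to -0.36, and 26 did not overlap. Ndufv3, an accessory subunit of the NADH-oxidising arm, was at 54.2, 35.9 and 49.6 FPKM in Sham and 19.2, 23.5 and 16.6 in BDL. Its difference of -1.19 (SE 0.24, limma adjusted p = 0.0636) was the largest among the nuclear members. Ndufa11, a membrane-arm subunit, was at 89.0, 69.6 and 88.0 FPKM in Sham and 35.5, 44.2 and 37.2 in BDL, a difference of -1.05 (SE 0.22, limma adjusted p = 0.065). Ndufab1, the mitochondrial acyl carrier protein, was at 9.26, 8.81 and 11.2 FPKM in Sham and 5.54, 5.67 and 5.77 in BDL. In all 3 genes the groups were separate.

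The 8 assembly factors, which help build complex I without staying in it, had a median of -0.61. Ndufaf6 had the smallest p of all members in MPH: it was at 17.6, 15.2 and 23.5 FPKM in Sham and 7.22, 8.88 and 7.47 in BDL, a difference of -1.14 (SE 0.22, limma adjusted p = 0.058). Ndufa4 was at 167, 202 and 299 FPKM in Sham and 135, 143 and 137 in BDL, lower in each BDL library than in each Sham library. Its paralog Ndufa4l2 stayed near the floor in MPH at 1.30, 3.18 and 1.27 FPKM in Sham and 2.55, 1.62 and 2.30 in BDL. Ndufab1-ps was at 32.4, 27.4 and 33.6 FPKM in Sham and 16.9, 19.8 and 17.7 in BDL, and Ndufb1-ps at 38.2, 37.7 and 39.3 in Sham and 20.7, 24.0 and 28.9 in BDL. Both were separate between groups, and reads that a pseudogene shares with a near-identical relative could not be assigned here.

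**Figure D3:**
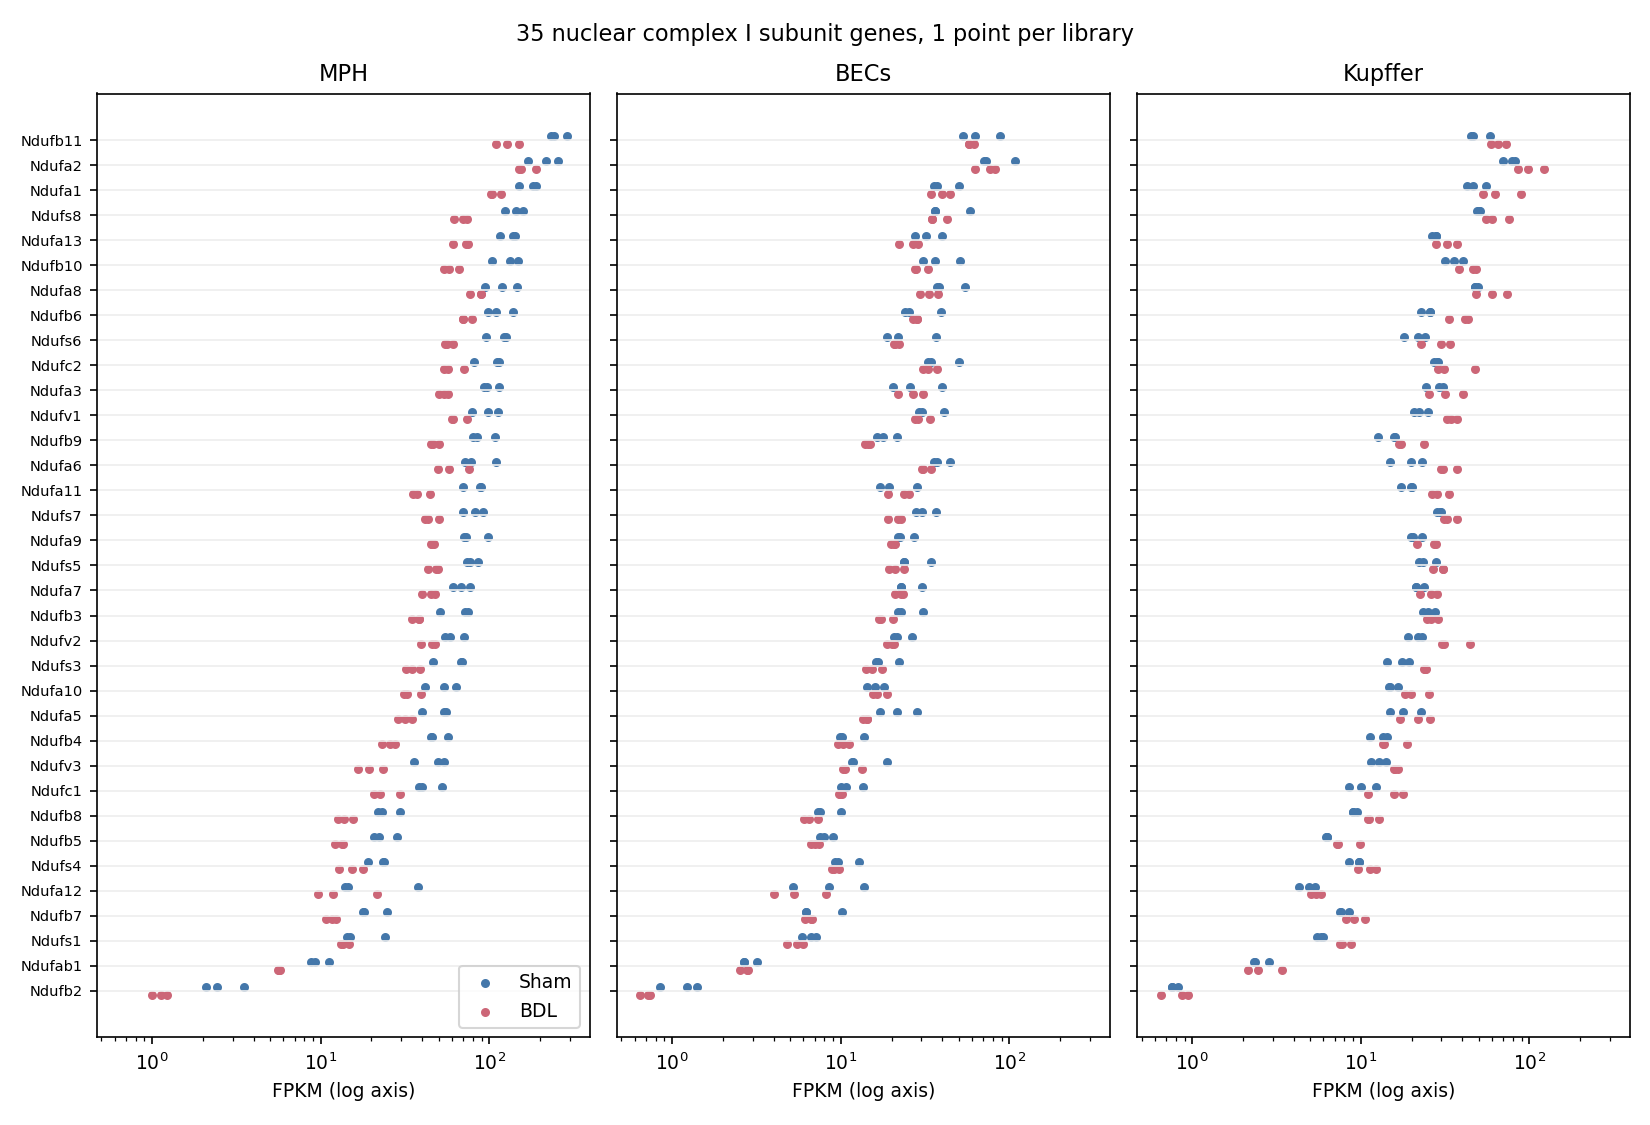
FPKM (horizontal log axis) of 35 nuclear complex I subunit genes in every library of MPH, BECs and Kupffer cells, Sham in blue and BDL in red, ordered by the mean in MPH Sham. In MPH 31 of the 35 genes have all BDL points left of all Sham points; in Kupffer cells 17 have them to the right.

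The mitochondrially encoded members in MPH differed more between libraries than between groups. None of the 13 separated Sham from BDL. The differences ran from -1.38 (SE 0.64) for mt-Co3 and -1.37 (SE 0.55) for mt-Nd4l through -0.82 (SE 0.44) for mt-Nd4, -0.68 (SE 0.40) for mt-Atp6, -0.58 (SE 0.45) for mt-Cytb, -0.56 (SE 0.50) for mt-Nd2 and -0.53 (SE 0.47) for mt-Co1. They were -0.31 (SE 0.42) for mt-Nd5, -0.29 (SE 0.46) for mt-Co2, -0.22 (SE 0.48) for mt-Nd1 and -0.18 (SE 0.38) for mt-Nd6, and positive for mt-Nd3 at 0.30 (SE 0.55) and mt-Atp8 at 0.47 (SE 0.54). The limma adjusted p lay between 0.203 and 0.824. Their median of -0.53 was -0.17 without MPH Sham replicate 3, the library with the highest mitochondrial sum, and -0.86 without MPH Sham replicate 1, the lowest of its group.

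The nuclear genes of the other complexes were lower by like amounts in MPH after ligation. The median difference was -0.73 over 4 complex II genes, -0.74 over 9 nuclear complex III genes, -0.76 over 12 tested nuclear complex IV genes and -0.71 over 18 nuclear complex V genes. Of these, 1 was called, against 1.57% of all genes tested. It was the ATP synthase subunit Atp5k at -1.67 (SE 0.22, limma adjusted p = 0.0278). The mitochondrial ribosomal proteins had a median of -0.45 over 81 tested genes with Mrpl49 called lower at -1.38 (SE 0.22, limma adjusted p = 0.0399). Genes for mitochondrial DNA transcription, RNA stability and replication were closer to 0, at a median of -0.23 over 22 genes with 0 called (limma, 3 at an unadjusted p under 0.05). The listed regulators of respiratory chain transcription had a median of 0.27 over 11 genes with 0 called (limma, 4 at an unadjusted p under 0.05). Of all 12323 genes tested in MPH, 194 (1.57%) were called and 2791 had an unadjusted p under 0.05. The monocyte markers moved in the same libraries: their sum was 12.4, 14.4 and 8.19 FPKM in MPH Sham and 76.6, 60.4 and 145 in MPH BDL, and 2 of 3 tested were called higher. Stellate cell markers (41.1 to 107 FPKM in Sham, 138 to 201 in BDL) and biliary markers (26.1 to 51.9 in Sham, 71.1 to 95.0 in BDL) were also higher in each BDL library, and T and NK cell markers (1.40 to 3.56 in Sham, 0.631 to 1.41 in BDL) overlapped. The Kupffer cell marker sum was 6702, 2903 and 1652 FPKM in Sham and 3360, 4528 and 1256 in BDL. Fewer hepatocytes in a library and less RNA per hepatocyte cannot be told apart in bulk samples, and the part of other cells in these differences was not tested.

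In biliary epithelial cells the members moved little. Of 60 tested members 55 were negative and 1 was called, lower, against 4.7% of genes called lower among 13573 tested. In 15 members each BDL library was below each Sham library, against 18.8% of all genes. The called gene was mt-Nd3, a membrane-core subunit of complex I, at 45.9, 37.0 and 44.2 FPKM in Sham and 27.3, 19.7 and 20.3 in BDL. Its groups were separate, with a log2 difference of -0.90 (SE 0.17, limma adjusted p = 0.031). Its call was lost with no filter on low levels (adjusted p = 0.105), with all 18 libraries in 1 model (0.321; 0.345 with the number block) and without any 1 of 5 of the 6 libraries, at adjusted p up to 0.119. It was kept without BECs BDL replicate 1 (0.0447). As shown above, 97.6% of its windows also occur in Gm28438, and of the 8 listed nuclear copies 0 were called in BECs (limma; 0 at an unadjusted p under 0.05).

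The other mitochondrially encoded genes in BECs ranged from -0.72 (SE 0.19, limma adjusted p = 0.0674) for mt-Nd2 to 0.28 (SE 0.53) for mt-Nd4l, with mt-Co1 at -0.32 (SE 0.20). The gene mt-Nd2 was at 1627, 1612 and 1273 FPKM in Sham and 1043, 837 and 856 in BDL. Its Sham and BDL libraries were separate, as were those of mt-Nd4 at -0.35 (SE 0.17). The other values were -0.45 (SE 0.39) for mt-Atp8, -0.41 (SE 0.27) for mt-Co2, -0.33 (SE 0.19) for mt-Cytb and -0.21 (SE 0.20) for mt-Nd5. They were -0.16 (SE 0.18) for mt-Nd6, -0.13 (SE 0.20) for mt-Nd1, -0.11 (SE 0.28) for mt-Co3 and -0.09 (SE 0.37) for mt-Atp6.

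Of the nuclear members in BECs, Ndufs7, the core subunit that hands electrons to quinone, had the smallest p: it was at 27.9, 30.4 and 36.7 FPKM in Sham and 19.1, 21.8 and 22.9 in BDL, a difference of -0.55 (SE 0.15, limma adjusted p = 0.0726). With all 18 libraries in 1 model it was called lower (adjusted p = 0.046; 0.0457 with the number block). Ndufa5, an accessory subunit of the peripheral arm, was at 17.0, 21.6 and 28.2 FPKM in Sham and 14.3, 13.5 and 14.3 in BDL, at -0.60 (SE 0.19, limma adjusted p = 0.0991). Ndufs1 was at -0.24 (SE 0.13), Ndufv1 at -0.14 (SE 0.18), Ndufab1 at -0.05 (SE 0.12), Ndufa4 at -0.31 (SE 0.17), Ndufab1-ps at -0.32 (SE 0.14) and Ndufb1-ps at 0.25 (SE 0.18). The median over the nuclear members was -0.19, and -0.07 without BECs Sham replicate 3, the library with the highest nuclear sum of its group. In BECs the hepatocyte marker sum was 2587, 1377 and 3419 FPKM in Sham and 560, 440 and 141 in BDL, and the neutrophil marker sum was 31.9, 30.7 and 91.8 in Sham and 278, 352 and 381 in BDL. Monocyte markers (7.48 to 18.6 FPKM in Sham, 47.6 to 201 in BDL) and T and NK cell markers (6.22 to 8.77 in Sham, 9.25 to 14.0 in BDL) were also higher in each BDL library, and biliary markers (3742 to 4390 in Sham, 3148 to 3588 in BDL) lower. The part of these cells in the members' differences was not tested.

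Ndufa4l2 was highest in the BECs libraries. It was at 9.93, 8.67 and 21.8 FPKM in BECs Sham and 9.17, 5.55 and 8.35 in BECs BDL, and its difference after ligation was -0.65 (SE 0.35, limma adjusted p = 0.296). In Kupffer cells it was at 0.634, 0.936 and 0.451 FPKM in Sham and 1.22, 0.307 and 0.585 in BDL, too low to be tested there. No BECs library overlapped with any library of MPH or Kupffer cells. The stellate cell marker sum was also higher in BECs, at 240, 322 and 418 FPKM in Sham and 635, 359 and 410 in BDL. In Sham it was 41.1 to 107 FPKM in MPH and 27.8 to 51.4 in Kupffer cells. The part of other cells in the Ndufa4l2 level was not tested.

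Outside complex I, the nuclear complex IV genes called in BECs were the isoforms Cox7a1 at -1.94 (SE 0.26, limma adjusted p = 0.0146) and Cox4i2 at -0.98 (SE 0.21, limma adjusted p = 0.0393), both lower, out of 14 tested with a median of -0.14. Of all genes tested in BECs, 4.7% were called lower. The endothelial markers, whose sum was 89.3, 103 and 131 FPKM in Sham and 43.1, 35.3 and 57.3 in BDL, fell in the same libraries with 4 of 5 called, and their part in these values was not tested. Among the 12 listed regulators Ppargc1a, a coactivator of mitochondrial genes, was called lower at -0.86 (SE 0.16, limma adjusted p = 0.0302). It was at 2.91, 2.57 and 1.92 FPKM in Sham and 0.787, 1.11 and 0.804 in BDL, near the limit of 1 FPKM for testing. The hepatocyte marker sum given above also fell in these libraries, and the part of hepatocytes in the Ppargc1a values was not tested.

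In Kupffer cells the members lay higher after ligation and none was called. Of 60 tested members 57 were positive and 0 were called, against 3.88% of 12748 genes tested. An unadjusted p under 0.05 was found for 14 of the 60 members and for 3070 of all 12748 genes, a like share. In 23 members, all nuclear, each BDL library was above each Sham library, against 16.7% of all genes. The median was 0.31 over the nuclear members, 0.98 over the mitochondrially encoded ones and 0.03 over all genes. The nuclear median fell to 0.13 when libraries were scaled to their recovered reads and to 0.01 when scaled to a common sum of FPKM, which set the median of all genes at -0.15 and -0.25. With all 18 libraries in 1 model 3 members were called higher, against 3.28% of genes called higher, and 5 with the number block, against 3.69%. Without Kupffer BDL replicate 3, 6 of 60 members were called higher, against 9.28% of genes, a share near that of all genes.

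All 7 core subunits were separate between the Kupffer groups in the deposited FPKM, against 16.7% of all genes that lay higher in this way. This depended on scaling: with libraries scaled to recovered reads, the groups overlapped for Ndufs1 and Ndufs8. Ndufv1 was at 25.1, 22.0 and 20.7 FPKM in Sham and 34.4, 32.4 and 37.0 in BDL, a difference of 0.60 (SE 0.14, limma adjusted p = 0.0702). Ndufs1 was at 5.84, 5.99 and 5.50 FPKM in Sham and 8.69, 7.72 and 7.49 in BDL, at 0.40 (SE 0.12, limma adjusted p = 0.112). In MPH these 2 subunits were at -0.57 and -0.31, and neither passed the test in either cell type.

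Of the accessory subunits in Kupffer cells, Ndufa11 was at 20.2, 19.9 and 17.2 FPKM in Sham and 33.1, 26.5 and 28.4 in BDL, at 0.59 (SE 0.15, limma adjusted p = 0.0788). Ndufa6, a small subunit at the quinone-side arm, was at 22.9, 19.8 and 15.0 FPKM in Sham and 37.4, 29.7 and 30.6 in BDL, at 0.74 (SE 0.20, limma adjusted p = 0.0872). Both were separate between groups in the deposited FPKM. Ndufa4 was at 0.52 (SE 0.21), Ndufab1-ps at 0.43 (SE 0.18), Ndufb1-ps at 0.38 (SE 0.18) and Ndufab1 at 0.06 (SE 0.17), which turned negative under each of the 3 other scalings. The 8 assembly factors had a median of 0.10, with 5 positive and 3 negative; in 3 each BDL library was above each Sham library, and in 1 below.

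The mitochondrially encoded values in Kupffer cells depended heavily on 1 library. The differences were 2.54 (SE 1.01) for mt-Atp6, 1.59 (SE 0.55) for mt-Atp8, 1.81 (SE 1.31) for mt-Co3, 1.69 (SE 1.13) for mt-Nd4l and 1.10 (SE 0.67) for mt-Nd6. They were 1.09 (SE 0.65) for mt-Nd5, 0.98 (SE 0.82) for mt-Co2, 0.95 (SE 0.78) for mt-Nd1 and 0.76 (SE 0.74) for mt-Co1. For mt-Nd4 and mt-Cytb they were 0.72 (SE 0.72) each, for mt-Nd2 0.70 (SE 0.73) and for mt-Nd3 0.51 (SE 0.42). The median of 0.98 became 0.22 without Kupffer BDL replicate 2 and 1.61 without Kupffer BDL replicate 3. All 13 stayed positive without any 1 library, but several came close to 0. The lowest values were 0.018 for mt-Nd2, 0.019 for mt-Cytb, 0.020 for mt-Nd4 and 0.085 for mt-Co1. The genes whose lowest value stayed largest were mt-Atp6 at 1.44, mt-Atp8 at 1.11 and mt-Co3 at 0.84. Kupffer BDL replicate 2 held mt-Atp6 at 945 FPKM against 135 and 67.0 in its group, and mt-Nd4l at 150 against 10.6 and 7.73. The gene mt-Atp8 was listed at 0 in 2 of the 3 Sham libraries and at 1.22 FPKM in the third, and at 2.86, 6.59 and 1.05 FPKM in BDL. The number block called mt-Atp6 higher at 2.61 (limma adjusted p = 0.0405).

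**Figure D4:**
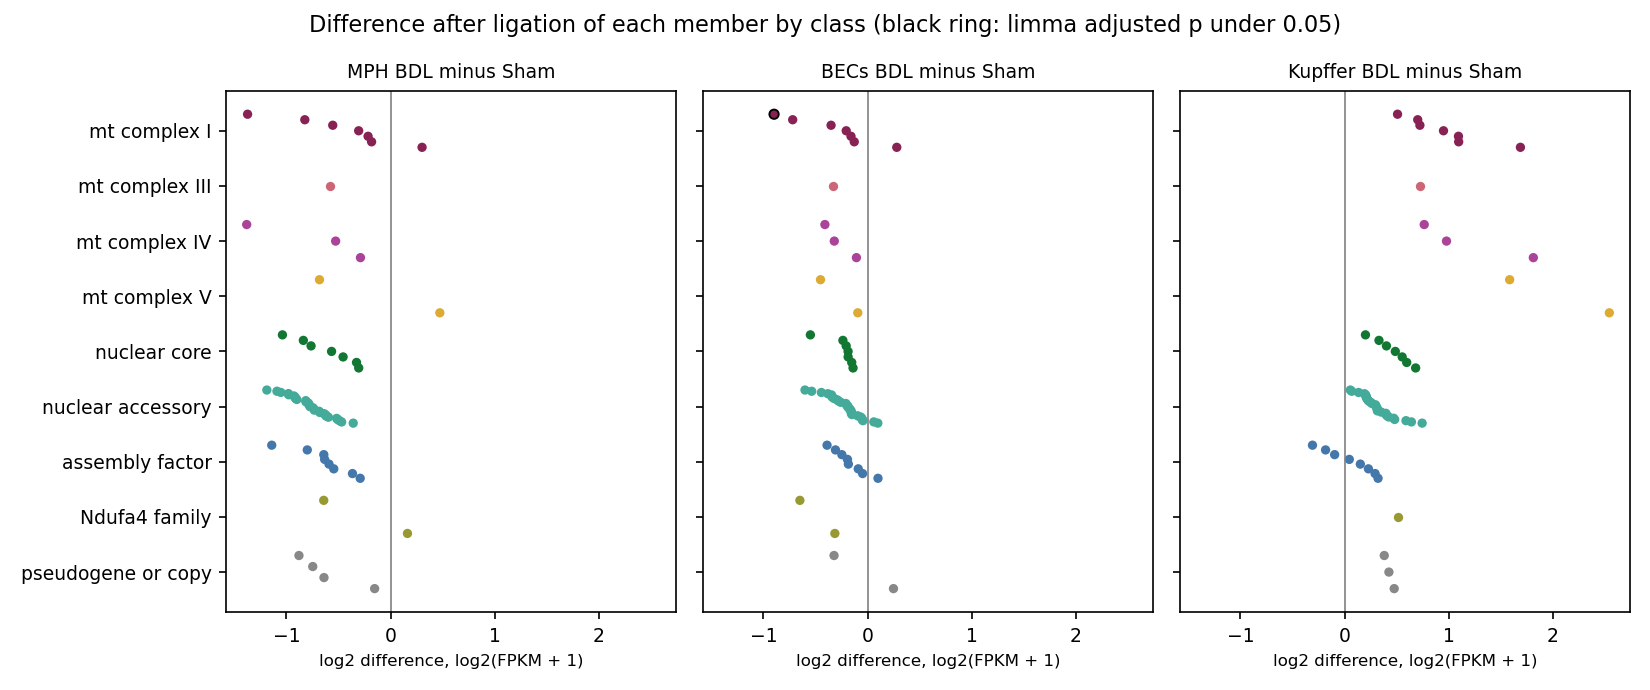
Log2 difference (BDL minus Sham, log2(FPKM + 1)) of each tested member by class in MPH, BECs and Kupffer cells, 1 point per gene, with a black ring where the limma adjusted p was under 0.05. Nuclear classes sit left of 0 in MPH and mostly right of 0 in Kupffer cells, and the only ringed point is mt-Nd3 in BECs.

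The other complexes had the same sign in Kupffer cells. The median was 0.51 over complex II, 0.40 over complex III, 0.33 over complex IV and 0.43 over complex V, with 0 genes called by limma in these 4 lists. An unadjusted p under 0.05 was found for 3 of 4, 5 of 9, 2 of 13 and 10 of 18 tested, against 3070 of all 12748 genes. Kupffer cell markers themselves summed to 5842, 5582 and 6755 FPKM in Sham and 12979, 8599 and 2085 in BDL, with replicate 3 below every Sham library. Replicate 3 also had the highest globin sum, 20590 FPKM, against 1826 to 12432 in Sham and 2991 and 500.0 in the other BDL libraries. The neutrophil marker sum was 270, 260 and 279 FPKM in Sham and 755, 709 and 2048 in BDL. Monocyte markers (87.9 to 307 against 344 to 427 FPKM) and stellate cell markers (27.8 to 51.4 against 69.1 to 156) were also higher in each BDL library, and endothelial markers (837 to 1011 against 254 to 655) and B and plasma cell markers (323 to 354 against 86.3 to 258) lower. The summed T and NK cell markers were 64.7, 54.0 and 52.5 FPKM in Sham and 10.4, 17.6 and 44.9 in BDL. The hepatocyte marker sum was 926, 594 and 417 FPKM in Sham and 1017, 3125 and 2384 in BDL. The part of these cells in the members' differences was not tested.

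The difference of the responses was tested directly. Between MPH and Kupffer cells 2 members were called, both lower in MPH, against 0.362% of 14101 genes called lower: Ndufa11 at -1.64 (SE 0.25, limma adjusted p = 0.0302) and Ndufv3 at -1.50 (SE 0.27, limma adjusted p = 0.048). In the deposited FPKM given above, Ndufa11 lay lower in all MPH BDL libraries and higher in all Kupffer BDL libraries than in Sham. Ndufv3 did so too, at 14.0, 12.9 and 11.5 FPKM in Kupffer Sham and 16.0, 15.8 and 16.6 in Kupffer BDL. With libraries scaled to recovered reads, the Kupffer Sham and BDL libraries of Ndufv3 overlapped. Over all 63 members 62 differences were negative. Neither call held under any of the 3 other scalings, where the adjusted p was 0.0952 to 0.127 for Ndufa11 and 0.132 to 0.161 for Ndufv3. With all 18 libraries in 1 model 29 members were called lower in MPH, against 3.48% of genes called lower, and with the number block 39, against 6.97%. Without Kupffer BDL replicate 3 alone, 15 were called lower, against 1.43% of genes, and without MPH Sham replicate 2, 3 were called lower, against 0.251%. The count was 0 or 1 without any other single library.

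Between MPH and BECs 0 members were called by limma, against 0.717% of 14780 genes called lower. An unadjusted p under 0.05 was found for 18 members, against 2632 of all 14780 genes. The smallest p belonged to Ndufa11 at -1.15 (SE 0.29, limma adjusted p = 0.0776) and Ndufaf6 at -1.05 (SE 0.27, limma adjusted p = 0.0804), and Ndufa11 was called with all 18 libraries in 1 model (adjusted p = 0.035; 0.0339 with the number block) and without BECs Sham replicate 3 (0.0399). Between BECs and Kupffer cells 1 member was called, Ndufa6 at -1.04 (SE 0.24, limma adjusted p = 0.0443), against 2.15% of 14874 genes called lower. In BECs Ndufa6 was at 35.6, 37.2 and 44.6 FPKM in Sham and 34.2, 30.5 and 30.3 in BDL, so that it lay lower in BECs BDL and higher in Kupffer BDL. Its call was lost under each of the 3 other scalings, with an adjusted p of 0.0751 to 0.129. No member was called then. With the number block 2 were called lower, Ndufa6 and Ndufv2, against 2.48% of genes, and without Kupffer BDL replicate 3, 8 members were called lower, against 6.55%. MPH, BECs and Kupffer values enter these differences with their own Sham libraries, and 2 of the 3 differences share each cell type.

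In the Sham livers the hepatocytes held more of nearly every member. MPH exceeded BECs with 60 of 63 members called higher, against 30.0% of 14466 genes, and 1 called lower, against 28.3%. MPH exceeded Kupffer cells with 61 called higher, against 28.7%. The median of the nuclear members was 1.47 against BECs and 1.69 against Kupffer cells, and that of the mitochondrially encoded genes 1.94 and 2.38. The sizes depended on scaling, since FPKM in MPH were scaled up relative to the reads: with libraries scaled to recovered reads the median of all genes moved to -0.54 and -0.65, and the nuclear members' medians to 0.77 and 0.91. There 46 members were called against BECs, 45 higher, against 14.7% of genes, and 1 lower, against 49.8%. Against Kupffer cells 51 were called, all higher, against 15% of genes. With a common sum of FPKM 30 were called against BECs, 27 higher, against 10.2% of genes, and 3 lower, against 62.2%. Against Kupffer cells 40 were called there, 39 higher, against 11.9% of genes, and 1 lower, against 65.7%. The median of all genes was then at -0.82 and -0.90. Relative to the median of all genes the median nuclear member stood higher in MPH under each of these scalings. Each scaling multiplies all genes of a library by 1 factor, so the members and the median of all genes shift almost together. The scalings are therefore not separate checks of that difference.

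**Figure D5:**
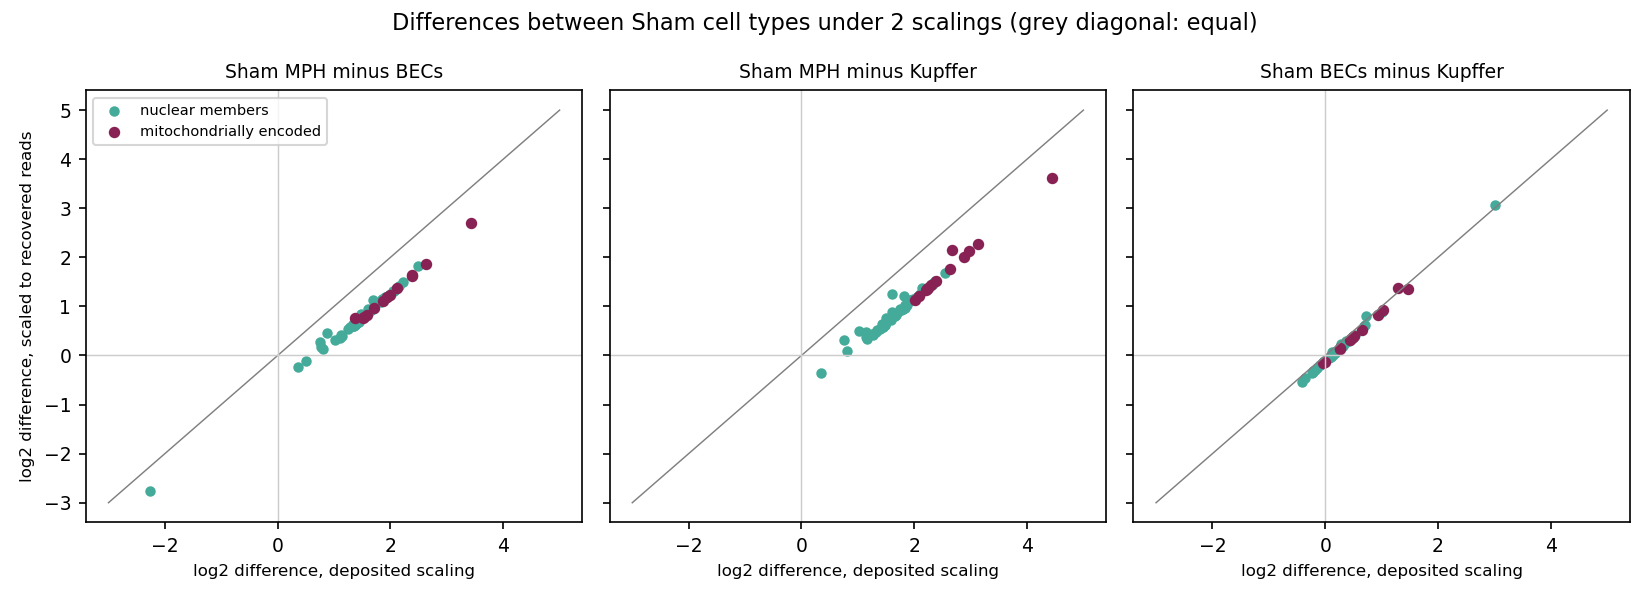
Log2 difference of each member between Sham cell types with the deposited FPKM (horizontal axis) and with libraries scaled to recovered reads (vertical axis), nuclear members in green and mitochondrially encoded ones in purple; the diagonal marks equal values. In both panels with MPH the points lie below the diagonal, with nuclear medians moving from 1.47 to 0.77 and from 1.69 to 0.91, and in the panel of BECs against Kupffer cells they lie close to it.

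Against BECs, the nuclear members with the largest differences were Ndufaf6 at 2.49 (SE 0.24, limma adjusted p = 3.05e-05), Ndufb9 at 2.23 (SE 0.18, limma adjusted p = 1.02e-05) and Ndufs6 at 2.15 (SE 0.25, limma adjusted p = 8.97e-05). Ndufb9 is an accessory subunit of the membrane arm, and it was at 84.3, 80.2 and 108 FPKM in MPH Sham, 16.3, 17.8 and 21.6 in BECs Sham and 16.0, 15.7 and 12.6 in Kupffer Sham. Ndufs6, a zinc-binding accessory subunit, was at 122, 95.3 and 126 FPKM in MPH Sham against 18.7, 21.9 and 36.9 in BECs Sham and 24.0, 21.8 and 18.0 in Kupffer Sham. In both genes the hepatocyte libraries lay far above all others. Against Kupffer cells Ndufb9 at 2.54 (SE 0.18), Ndufs6 at 2.37 (SE 0.25) and Ndufb11 at 2.34 (SE 0.22) led.

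Among the named core subunits, Ndufv1 was higher in MPH by 1.51 (SE 0.20) against BECs and by 2.04 (SE 0.20) against Kupffer cells, and Ndufs1 by 1.28 (SE 0.19) and 1.43 (SE 0.19). Ndufab1 differed by 1.48 (SE 0.14) and 1.61 (SE 0.14), Ndufa4 by 2.09 (SE 0.25) and 2.33 (SE 0.25), Ndufab1-ps by 1.25 (SE 0.17) and 1.95 (SE 0.17), and Ndufb1-ps by 1.90 (SE 0.17) and 1.48 (SE 0.17). All of these were called. The marker mt-Co1 was higher in MPH by 1.54 (SE 0.48, limma adjusted p = 0.0217) against BECs and by 2.01 (SE 0.48, limma adjusted p = 0.00666) against Kupffer cells. The other mitochondrially encoded genes ran from 1.36 (SE 0.55) for mt-Atp8, which was not called, to 3.43 (SE 0.53) for mt-Nd4l against BECs, and from 2.09 (SE 0.42) for mt-Nd1 to 4.45 (SE 0.53) for mt-Nd4l against Kupffer cells.

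The exceptions were few. Ndufa4l2 was lower in MPH than in BECs by a log2 difference of -2.26 (SE 0.35, limma adjusted p = 0.000484). The assembly factors Ndufaf5 and Ndufaf7 were nearest to equal and are named after their values were seen, Ndufaf5 at 0.35 (SE 0.20) against BECs and 0.34 (SE 0.20) against Kupffer cells, not called, and Ndufaf7 at 0.51 (SE 0.14) and 0.80 (SE 0.14), both called. Their direction depended on scaling: Ndufaf5 turned negative under each of the 3 other scalings in both comparisons, and Ndufaf7 under all 3 against BECs and under 2 of 3 against Kupffer cells. With a common sum of FPKM Ndufaf5 was called lower in MPH than in BECs at -0.54 (limma adjusted p = 0.00731) and lower than in Kupffer cells at -0.63 (limma adjusted p = 0.00296).

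Between BECs and Kupffer cells few members were called, 5 of 63, all higher in BECs, against 23.9% of genes called higher. They were Ndufa4l2 at 3.01 (SE 0.35, limma adjusted p = 0.000126), mt-Nd3 at 1.47 (SE 0.40, limma adjusted p = 0.0146), Ndufa6 at 1.00 (SE 0.22, limma adjusted p = 0.00519), Ndufs6b at 0.73 (SE 0.24, limma adjusted p = 0.0348) and Ndufab1-ps at 0.70 (SE 0.17, limma adjusted p = 0.0101). Ndufs6b was at 0.868, 0.520 and 1.05 FPKM in BECs Sham and listed at 0 in 2 Kupffer Sham libraries and at 0.285 in the other. The lowest values were Ndufb1-ps at -0.42 (SE 0.17), Ndufaf6 at -0.35 (SE 0.24) and Ndufs8 at -0.23 (SE 0.21), none of them called. The marker mt-Co1 differed by 0.47 (SE 0.48).

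The nuclear genes of the other complexes were also mostly higher in MPH than in BECs in Sham, with the deposited FPKM. Against BECs, MPH was called higher in 4 of 4 complex II genes, 9 of 9 nuclear complex III genes, 17 of 18 nuclear complex V genes and 10 of 15 nuclear complex IV genes, against 30.0% of all genes tested. Of the remaining genes, 3 of complex IV and 1 of complex V were called lower, against 28.3% of all genes. These lists were not fitted under the other scalings, which lowered the counts of the members. Of the mitochondrial ribosomal proteins 72 of 80 were called higher and 1 lower, with a median of 1.11. The genes for mitochondrial DNA transcription, RNA stability and replication differed less, with 16 of 22 called higher and a median of 0.77.

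The promoters of the nuclear members were read for 4 short motifs of factors known to act on respiratory chain genes. RefSeq windows on GRCm38.p6, from 250 bases before to 50 after the start, were held for 40 of the 50 nuclear members. The NRF1 letters GCATGCGC, on either strand, were in 5 of 40 (12.5%), against 2.80% of 27025 promoters. The YY1 motif, whose letters are the capitals of the Ndufs6 window below, was in 5 of 40 (12.5%), against 0.899%, the ETS letters CCGGAAG in 6 (15%), against 9.12%, and the ERR letters AAGGTCA in 3 (7.5%), against 4.66%. These shares are descriptions, and a match is not a bound site. The windows of Ndufa11, whose response differed between MPH and Kupffer cells, and of Ndufs6, among the members highest in MPH, are shown with the motif in capitals (NRF1 in Ndufa11, where 2 matches overlap, and YY1 in Ndufs6).
Ndufa11 (chr17:56717512-56717811, plus): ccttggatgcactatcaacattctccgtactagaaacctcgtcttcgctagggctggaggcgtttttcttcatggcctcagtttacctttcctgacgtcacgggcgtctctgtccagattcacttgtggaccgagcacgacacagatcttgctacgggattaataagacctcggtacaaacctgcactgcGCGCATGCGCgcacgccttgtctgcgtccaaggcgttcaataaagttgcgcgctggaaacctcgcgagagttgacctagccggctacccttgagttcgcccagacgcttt
Ndufs6 (chr13:73328433-73328732, minus): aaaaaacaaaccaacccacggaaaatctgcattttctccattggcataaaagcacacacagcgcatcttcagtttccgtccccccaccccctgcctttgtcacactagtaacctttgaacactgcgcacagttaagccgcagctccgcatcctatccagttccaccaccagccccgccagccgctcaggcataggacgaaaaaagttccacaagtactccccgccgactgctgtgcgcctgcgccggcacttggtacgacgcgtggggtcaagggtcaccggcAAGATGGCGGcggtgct
The NRF1 match of Ndufa11 opens at base 191 of its window, before the start, and the YY1 match of Ndufs6 at base 284, after it. Of the other named members, NRF1 letters were found for Ndufa6 and Ndufaf5, YY1 letters for Ndufs7, ETS letters for Ndufs8 and ERR letters for Ndufb2, and no letters of the 4 motifs for Ndufv1, Ndufv3, Ndufab1 or Ndufa4.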

How the data were processed

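The authors deposited FPKM per gene for 18 libraries. Per the submitters' processing notes, the tools named are CASAVA 1.8, fastp, HISAT2 2.0.5, featureCounts 1.5.0-p3 and DESeq2 1.20.0, on GRCm38; the annotation release is not given in the sources used here. Per the labels' protocols, total RNA was extracted with TRIzol and polyadenylated RNA was sequenced. Samples that the series' design names but that are not in these 6 groups are not analysed here.

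From the deposited FPKM, log2(FPKM + 1) was fitted with limma 3.58.1 (R 4.3.3, trend and robust, statmod 1.5.0) on the groups compared, over genes with at least 1 FPKM in at least 3 of the fitted libraries, with Benjamini-Hochberg adjustment over all genes tested and a threshold of 0.05. The fit was tested on simulated data. Reads were recovered from FPKM and GENCODE M21 exon lengths: 97.4% to 98.4% of values under 200 reads came out whole within 0.02, and they served for scaling and depth. FPKM were not in proportion to reads alike in all cell types, so 3 other scalings were run: to recovered reads, and to a common sum of FPKM with and without mitochondrially encoded genes. Other alternatives were a pseudocount of 0.1, no filter, all 18 libraries in 1 model, a number block and leaving out each library.

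Some MPH and Kupffer libraries carry the same number in their titles. Their deviations from the group means correlated at 0.213, 0.324 and 0.299 over 15594 genes, and the number was taken to pair them. MPH and Kupffer libraries of the same treatment with different numbers correlated at -0.320 to 0.208. The pair at 0.213 thus barely stood out, and the basis for the number block is weak. Named nuclear genes were those called with the largest changes in each comparison (4 each way after ligation; where none was called, the 2 smallest p), the 3 largest each way between Sham cell types, and Ndufs1, Ndufv1, Ndufab1, Ndufa4, Ndufa4l2 and the -ps genes; others are said to be named after their values were seen or stand in counts. One further member that the rule names is not reported here by name and stands in the counts. Other lists are given by counts, with at most 2 called genes. The members and lists were chosen with earlier results of these data known.

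Shared windows were exact matches of 100 bases, on either strand, to other GENCODE M21 transcripts. Python 3.11.15, numpy 2.4.6, pandas 2.3.3, Biopython 1.88 and matplotlib 3.10.9 were used.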

Additional observations from a re-analysis of the deposited data

Results flagged for a closer look

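The test of the difference between responses picked out 3 values. The response of Ndufa11 was lower in MPH than in Kupffer cells by a log2 difference of -1.64, and that of Ndufv3 by -1.50. The response of Ndufa6 was lower in BECs than in Kupffer cells at -1.04. All 3 lost their call under each of the other scalings.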

How the results depend on the processing

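Member counts called by limma changed as follows; the cause was not tested. With all 18 libraries in 1 model they were 34 in MPH and 3 in Kupffer cells after ligation, and 1, 29 and 0 for the response differences MPH minus BECs, MPH minus Kupffer and BECs minus Kupffer; with the number block they were 36, 5, 1, 39 and 2, and the block moved no other count by more than 1.5 times. With no filter they were 0 in BECs after ligation, 3 for Sham BECs minus Kupffer, and 1 and 0 for the MPH and BECs responses against Kupffer; a pseudocount of 0.1 gave 1 and 0 for these. The 3 other scalings gave 0 for both of these response differences, and Sham MPH minus BECs gave 30 with a common sum and 34 without mitochondrially encoded genes, and MPH minus Kupffer 40 with a common sum. Leaving out 1 library gave 0 in MPH, 0 to 1 in BECs and 0 to 6 in Kupffer cells after ligation, 58 to 62, 60 to 62 and 3 to 9 for the Sham comparisons MPH minus BECs, MPH minus Kupffer and BECs minus Kupffer, and 0 to 1, 0 to 15 and 0 to 8 for the response differences; without BECs Sham replicate 3 or Kupffer Sham replicate 3, 1 member was called lower in BECs than in Kupffer cells, and the count of 9 came without MPH Sham replicate 3. Signs turned for Ndufab1 in Kupffer cells (-0.18, -0.14 and -0.091 with a common sum, without mitochondrially encoded genes and with recovered reads), for Ndufaf5 in Sham MPH minus BECs (-0.54, -0.49, -0.24) and minus Kupffer (-0.63, -0.56, -0.35), for Ndufaf7 (-0.44, -0.39, -0.11 and -0.20, -0.13), and with the block for mt-Nd1 (0.032) and mt-Co3 (0.17) in Sham BECs minus Kupffer. Leaving out 1 library spanned 0 in BECs after ligation for Ndufab1 (-0.087 to 0.0098), Ndufv1 (-0.23 to 0.013), mt-Atp6 (-0.47 to 0.30), mt-Co3 (-0.38 to 0.12), mt-Nd1 (-0.26 to 0.0091) and mt-Nd4l (-0.32 to 0.58), in Kupffer cells for Ndufab1 (-0.085 to 0.16), in MPH for mt-Atp8 (-0.059 to 0.90), mt-Co2 (-0.65 to 0.035), mt-Nd1 (-0.60 to 0.044) and mt-Nd3 (-0.14 to 0.78), and in Sham BECs minus Kupffer for mt-Co2 (-0.13 to 0.56), mt-Co3 (-0.60 to 0.61), mt-Nd1 (-0.26 to 0.40) and mt-Nd2 (-0.032 to 0.74). Each group had 3 libraries, and counting error was not compared with their spread; the lowest members, mt-Atp8 and Ndufs6b, were listed at 0 in some libraries.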
